A study of Mus musculus with 2 samples.

Results

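The 37 genes described here encode enzymes of glycolysis (16 genes), of pyruvate entry into mitochondria (8 genes) and of the citric acid cycle (13 genes). They were taken from a fixed list of gene symbols and matched to the 32285 gene rows of the deposited tables, which hold 32245 symbols. All 37 were found, in 38 rows. Aldoa has 2 rows, and the second held 0 UMIs in control and 4 UMIs in Dox in RPE cells, so that both were summed.

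The study asked how the mouse retinal pigment epithelium (RPE) responds to a low dose of doxorubicin (Dox), a drug that damages DNA. Both groups were male C57BL/6J mice of 3 months that received a subretinal injection of 1 µl, either of PBS (control) or of 100 ng/µl Dox, and were killed 7 days later. Each group was 1 pool of 5 mice, whose 10 eyes gave the RPE, choroid and sclera for 1 single-cell RNA sequencing library. By the study's account, injected Dox usually reaches only a part of the RPE area. RPE cells of the Dox library thus include cells that the drug may not have reached. The control library kept 20180 of 20381 cells, and the Dox library 15426 of 15649 cells.

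Levels are unique molecular identifiers (UMIs, each a tagged RNA molecule) summed over a group of cells and scaled to 1000000 UMIs of the same cells (CPM). The kit tags the 5′ end of each RNA, so levels were not divided by gene length. Every 95% interval covers counting error only. With 1 library per condition no test between the conditions could be made, and the treatment, the animals and the library cannot be told apart.

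RPE cells were those with at least 10 UMIs of Rpe65, which encodes the isomerase of the visual cycle. There were 1526 of them in control (7.56% of kept cells, median 16014 UMIs per cell) and 1630 in Dox (10.6%, median 18116 UMIs). Among the cells that were not kept, 56 in control and 116 in Dox also had at least 10 UMIs of Rpe65. All 37 members had at least 50 UMIs in RPE cells. The summed level of 9 RPE markers, Rpe65 among them, was 101010 CPM in these cells in control against 101560 CPM in Dox. Ttr alone gave 69732 and 70884 CPM, so that the sum mostly follows Ttr. Best1, a chloride channel of the RPE, was at 0.532 and 0.673 CPM. Summed markers of rods stood at 3.15 and 4.01 CPM, of erythrocytes at 1.03 and 1.15 CPM and of skeletal muscle at 2.20 and 2.50 CPM. The libraries shared 441 cell barcodes, 3 of them among RPE cells.

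Glycolysis splits glucose into pyruvate in the cytosol, and lactate dehydrogenase converts pyruvate to lactate and back. In mitochondria, pyruvate dehydrogenase turns pyruvate into acetyl-CoA, which the citric acid cycle oxidizes. The RPE lies between the choroidal blood supply and the photoreceptors. It is known to pass glucose on to the photoreceptors, which release lactate, and to take up and oxidize other fuels itself.

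The sequences that follow show the 250 bases before the start of genes whose levels set RPE cells apart in both libraries. Ldha and Hk2 were low in RPE cells, and Ldhb, Pgk1 and Pcx were high. The choice favours windows that hold the motif described here. Aldoc and Eno1, with larger ratios of RPE cells to all other cells than Pgk1, held none in any window and are not printed. The sequences are from RefSeq on GRCm38.p6, 5′ to 3′ along the gene. Capitals mark ACGTG on either strand, the core letters of the hypoxia response element, and a CACGTG holds it on both strands.
Ldha, chr7:46845554-46845803, plus strand: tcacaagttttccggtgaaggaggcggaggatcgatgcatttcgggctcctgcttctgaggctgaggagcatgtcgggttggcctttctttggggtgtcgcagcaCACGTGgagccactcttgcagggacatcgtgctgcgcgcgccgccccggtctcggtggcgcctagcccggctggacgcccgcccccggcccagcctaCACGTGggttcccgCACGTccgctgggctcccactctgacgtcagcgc
Ldhb, chr6:142507958-142508207, minus strand: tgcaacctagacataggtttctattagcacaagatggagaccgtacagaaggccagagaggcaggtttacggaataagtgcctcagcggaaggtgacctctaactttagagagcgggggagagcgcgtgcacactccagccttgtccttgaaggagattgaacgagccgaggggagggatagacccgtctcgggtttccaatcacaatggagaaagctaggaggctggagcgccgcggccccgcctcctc
Hk2, chr6:82774455-82774704, minus strand: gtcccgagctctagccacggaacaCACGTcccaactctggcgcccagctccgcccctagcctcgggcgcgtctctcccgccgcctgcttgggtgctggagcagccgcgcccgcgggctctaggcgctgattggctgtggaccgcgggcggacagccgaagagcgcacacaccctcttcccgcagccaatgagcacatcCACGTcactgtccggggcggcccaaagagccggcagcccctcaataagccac
Pgk1, chrX:106186850-106187099, plus strand: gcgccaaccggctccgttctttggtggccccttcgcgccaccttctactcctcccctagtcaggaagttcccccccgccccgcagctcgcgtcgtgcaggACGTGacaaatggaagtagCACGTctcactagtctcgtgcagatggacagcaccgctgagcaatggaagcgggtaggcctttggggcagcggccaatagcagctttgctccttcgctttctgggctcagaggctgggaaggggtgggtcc
Pcx, chr19:4510222-4510471, plus strand: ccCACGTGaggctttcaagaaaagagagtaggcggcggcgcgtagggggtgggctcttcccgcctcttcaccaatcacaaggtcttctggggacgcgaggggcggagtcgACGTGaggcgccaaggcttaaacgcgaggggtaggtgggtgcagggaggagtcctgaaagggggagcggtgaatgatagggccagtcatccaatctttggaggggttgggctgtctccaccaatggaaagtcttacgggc
None of these windows overlaps an exon of GENCODE vM21, and that of Ldha lies in an intron of the longer GENCODE gene model. The Ldha window held 5 matches, 4 of them in 2 copies of CACGTG, while the Ldhb window held none. The Hk2 and Pgk1 windows held 2 each, and the Pcx window held 3. The other RefSeq window of Ldha and that of Pcx held none. ACGTG was present in 16.6% of all 32851 windows of this length. It was present in 20 of the 55 windows of the members (36.4%), some of which overlap one another. Ogdh, with several windows that share the same sites, held ACGTG in each of them and so weighs in this share more than once. By gene, 13 of the 36 members with an entry held it in at least 1 window, 7 in glycolysis and 6 in the other lists, against 18.5% of 27025 genes. A match describes letters only.

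In RPE cells the 37 levels spanned from 2.05 CPM (Pdk4) to 2161 CPM (Aldoa) in control. Summed over the 16 members, glycolysis held 5791 CPM in control against 6148 CPM in Dox. The 21 genes of pyruvate entry and the citric acid cycle held 2428 and 2505 CPM. Glycolysis thus had 2.38 times as many UMIs in control and 2.45 times in Dox. Single genes weigh much in these sums, with Aldoa at 2161 and 2204 CPM in glycolysis. The cytosolic Mdh1 held 843 and 874 CPM of the other sum. Fibroblast-like cells, the largest other group, had 3082 and 3043 CPM for glycolysis and 1512 and 1514 CPM for the other 21 genes. Melanocyte-like cells came near RPE cells for glycolysis, at 5551 and 5691 CPM, with 2.52 and 2.44 times as many UMIs as for the other genes. Smooth muscle-like cells had slightly more than RPE cells for the other 21 genes, at 2468 and 2548 CPM.

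**Figure D1:**
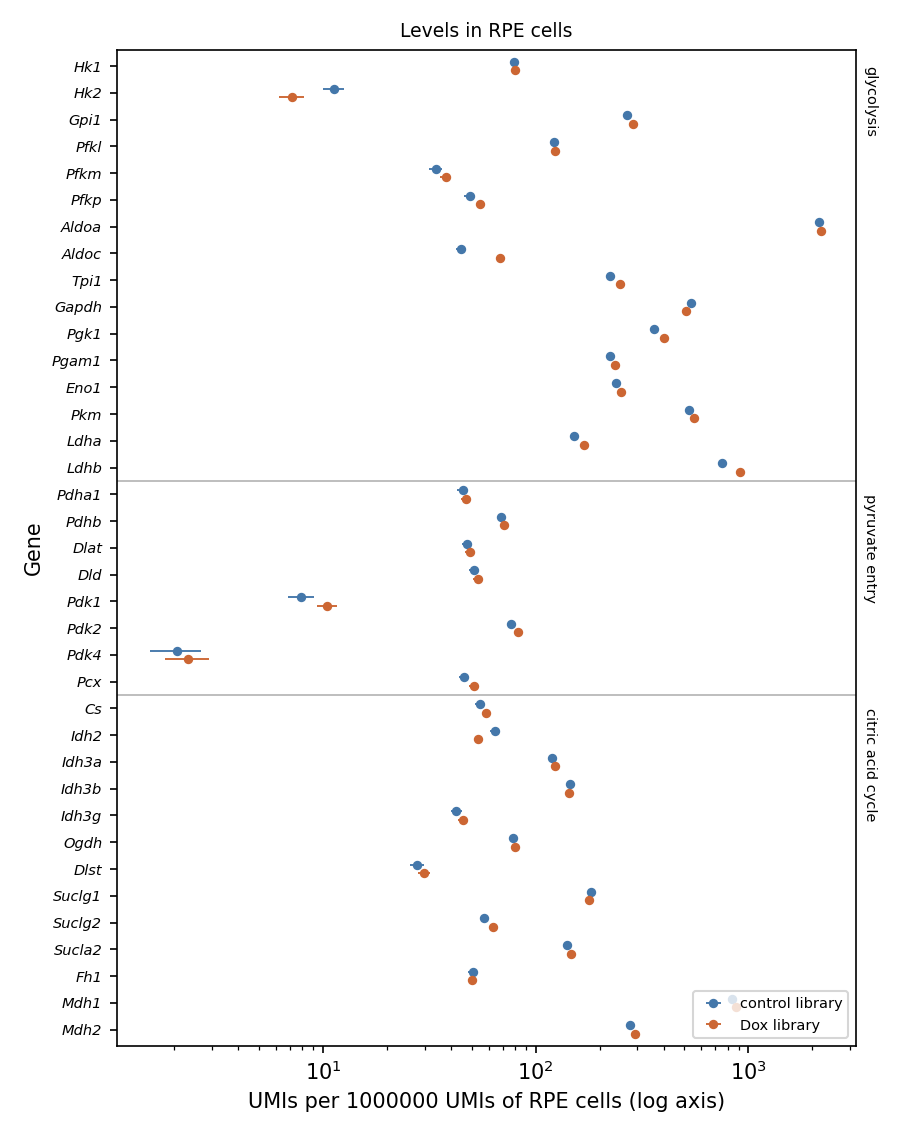
Levels of the 37 members in RPE cells, in UMIs per 1000000 UMIs on a log axis, with 1 point per library and 95% Poisson intervals of counting error. Aldoa, Mdh1 and Ldhb stand highest and Pdk4 lowest, and the points of the libraries lie close together for most genes.

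Among the first enzymes of glycolysis, Hk1, the hexokinase that most tissues use, was at 79.1 CPM in control against 80.0 CPM in Dox. Hk2, the insulin- and hypoxia-responsive hexokinase, was at 11.2 and 7.12 CPM. Hk1 therefore gave most hexokinase UMIs in RPE cells. In all other cells together Hk2 gave 66.4% of those of Hk1 and Hk2 in control and 58.9% in Dox. Hk2 gave the larger part in fibroblast-like cells (69.0% and 61.6%) and macrophage-like cells (75.7% and 59.5%). In the other named types Hk1 gave the larger part, as in RPE cells. Hk2 had 23.6% and 14.3% in smooth muscle-like cells, and 46.4% (39.1% to 53.7%) and 43.3% (33.6% to 53.3%) in NK or T-like cells. Glucose phosphate isomerase (Gpi1) was at 270.2 and 286 CPM. Of the phosphofructokinase subunits, which catalyse the main regulated step, the liver form Pfkl was at 122 and 123 CPM, the platelet form Pfkp at 48.9 and 54.9 CPM and the muscle form Pfkm at 33.8 and 37.8 CPM. Pfkl thus gave 59.5% of phosphofructokinase UMIs in control (95% interval 58.2% to 60.9%) and 57.1% in Dox (55.9% to 58.3%).

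The middle steps held the most abundant member. Aldoa, the aldolase of muscle and most other tissues (chr7:126795234-126800751, minus strand, GRCm38), was at 2161 CPM in control (2144 to 2179) against 2204 CPM in Dox (2188 to 2221). Aldoc, the aldolase typical of brain (chr11:78322968-78327781, plus strand), was far lower, at 44.5 and 68.3 CPM. Gapdh, which makes the first NADH of the pathway, was at 541 and 510.1 CPM. Triose phosphate isomerase (Tpi1) was at 224 and 249 CPM, and Pgk1, which makes the first ATP, at 362 and 401 CPM. Aldoa stood above every other member, and Gapdh above Tpi1 and Pgk1 in both libraries. The mutase Pgam1 was at 224 and 235 CPM, and the enolase Eno1 at 239 and 252 CPM. Pkm, pyruvate kinase, was at 526 and 555 CPM. Members such as Gapdh, Tpi1, Pgam1, Pkm and Ldha have near-identical pseudogene copies elsewhere in the mouse genome. Reads can be shared with these copies, so that the levels of such members are less certain.

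Lactate dehydrogenase in RPE cells was mainly Ldhb, the heart-type subunit (chr6:142490249-142507957, minus strand). Its level was 753 CPM in control and 915 CPM in Dox. Ldha, the muscle-type subunit (chr7:46841475-46855627, plus strand), was at 151 and 169 CPM. Ldhb made up 83.3% of the UMIs of both in control (82.8% to 83.8%) and 84.4% in Dox (84.0% to 84.8%). In all other cells it made up 38.2% and 41.6%. The cells of the RPE-like cluster with fewer than 10 Rpe65 UMIs had 78.1% in control and 77.1% in Dox. The highest shares among the other cell types were those of melanocyte-like cells, 64.1% in control and 74.3% in Dox, in which RPE markers were also higher in Dox. Endothelial-like cells had 19.3% and 15.7%, and NK or T-like cells 18.8% and 20.05%. RPE cells stood above every other named cell type in both libraries, with intervals that did not overlap.

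**Figure D2:**
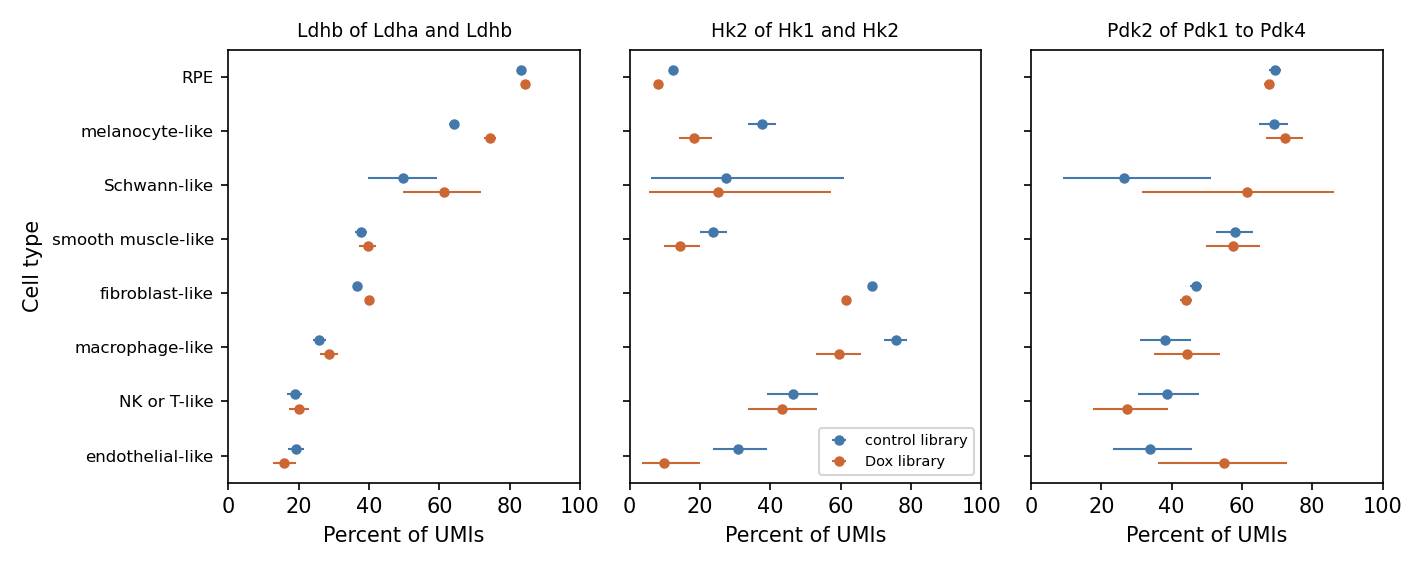
Shares of Ldhb, Hk2 and Pdk2 among the UMIs of their isozymes (percent, 0 to 100, 1 panel each) in RPE cells and 7 other named cell types, with 1 point per library and 95% Clopper-Pearson intervals of counting error. RPE cells have the highest share of Ldhb in both libraries and the lowest share of Hk2, with 12.4% in control and 8.16% in Dox. For Hk2 the intervals of Schwann-like cells overlap those of RPE cells in both libraries, and those of endothelial-like cells in Dox. For Pdk2 the intervals of melanocyte-like cells overlap those of RPE cells in both libraries. Those of Schwann-like and endothelial-like cells do so in Dox.

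At the entry to the mitochondrion, the pyruvate dehydrogenase subunits Pdha1 and Pdhb were at 45.4 and 68.9 CPM in control and at 46.9 and 70.9 CPM in Dox. Dlat and Dld, of the same complex, were at 47.6 and 51.3 CPM in control and 48.8 and 53.5 CPM in Dox. Pdhx, a structural part of the complex that is no member, was lower, at 15.4 and 16.03 CPM. Of the kinases that switch the complex off, Pdk2 was the main one, at 76.8 and 82.7 CPM. It gave 69.5% of the UMIs of the 4 kinases in control (67.8% to 71.2%) and 67.7% in Dox (66.2% to 69.2%), against 49.3% and 47.4% in all other cells. Melanocyte-like cells had a like share, 69.1% in control (64.9% to 73.0%) and 72.3% in Dox (66.8% to 77.3%). Among the kinases in RPE cells, Pdk3, which is no member, came next at 23.7 and 26.8 CPM. Pdk1, the kinase known as a target of hypoxia signalling, was at 7.90 and 10.4 CPM. Pdk4, the kinase known for fasting, was at 2.05 and 2.31 CPM. Pyruvate carboxylase (Pcx, chr19:4510472-4621752, plus strand), which turns pyruvate into oxaloacetate, was at 46.1 and 51.2 CPM.

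Within the cycle, the cytosolic malate dehydrogenase Mdh1, a part of the malate-aspartate shuttle, was the most abundant, at 843 CPM in control against 874 CPM in Dox. Its mitochondrial counterpart Mdh2 was at 279 and 293 CPM. No other cycle gene reached the level of Mdh2 in either library. The subunits of the NAD-dependent isocitrate dehydrogenase were at 119 and 123 CPM for Idh3a, 144 and 143 CPM for Idh3b, and 42.3 and 45.3 CPM for Idh3g. The NADP-dependent enzyme Idh2 was at 64.3 and 53.6 CPM. Ogdh and Dlst, of the oxoglutarate dehydrogenase complex, were at 78.5 and 27.7 CPM in control and 80.0 and 29.7 CPM in Dox. Citrate synthase (Cs) was at 54.5 and 58.6 CPM, and fumarase (Fh1) at 50.6 and 50.4 CPM. For succinyl-CoA ligase, the shared subunit Suclg1 was at 181 and 178 CPM, the ADP-forming subunit Sucla2 at 141 and 146 CPM and the GDP-forming subunit Suclg2 at 57.4 and 62.9 CPM. Sucla2 gave 71.1% and 70.0% of the UMIs of these 2 partner subunits.

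Compared with all other cells of the same library, 10 of the 37 members were at least 2-fold higher in RPE cells in both libraries, and 5 were at least 2-fold lower. In each library 11 were higher and 5 lower. Relative to the median of all genes, 14 were higher in control and 15 in Dox, and 2 were lower in each. By the 2-fold rule without this shift to the median, 12.8% of all genes compared were higher and 34% lower in control. In Dox these shares were 14.2% and 32.9%. No share of all genes is given for the counts relative to the median. The median of the members was 0.33 on the log2 scale in control and 0.51 in Dox, against -0.42 and -0.36 for all genes.

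Among the higher members, Aldoc and Pcx had the largest ratios. Aldoc was 44.5 CPM in RPE cells and 3.49 CPM in the others in control, 12.7-fold higher, and 8.69-fold higher in Dox. Pcx was 12.0-fold higher in control and 11.1-fold higher in Dox. The 9 RPE markers stood at 4235 CPM in all other cells in control and 6918 CPM in Dox, of which Ttr gave 2820 and 4813 CPM. The part of RPE RNA in the levels of other cells was not tested. Eno1 was 5.08-fold higher in control and 5.57-fold higher in Dox, and Ldhb 3.35-fold and 3.70-fold. Mdh1, Aldoa, Pgk1, Suclg1, Pdk2 and Idh3a lay between 2.39-fold and 2.93-fold in control. Sucla2 passed 2-fold in control alone (2.02-fold, against 1.996-fold in Dox), and Pfkl in Dox alone (2.10-fold, against 1.86-fold in control).

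Of the lower members, Ldha, Pdha1 and Idh2 were no longer 2-fold lower relative to the median of all genes, while Hk2 and Pdk4 were. The list was led by Hk2, at 111 CPM in the other cells of control against 11.2 CPM in RPE cells, a 9.86-fold difference, and 11.3-fold in Dox. Pdk4 was lower by 3.89-fold in control and 3.69-fold in Dox. Ldha was lower by 2.41-fold and 2.04-fold, Pdha1 by 2.33-fold and 2.22-fold and Idh2 by 2.18-fold and 2.27-fold. The subunits of one complex thus stood apart, since Pdhb was higher in RPE cells, by 0.32 on the log2 scale in control and 0.35 in Dox. Dlat and Dld were 1.07-fold and 1.08-fold higher in control.

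**Figure D3:**
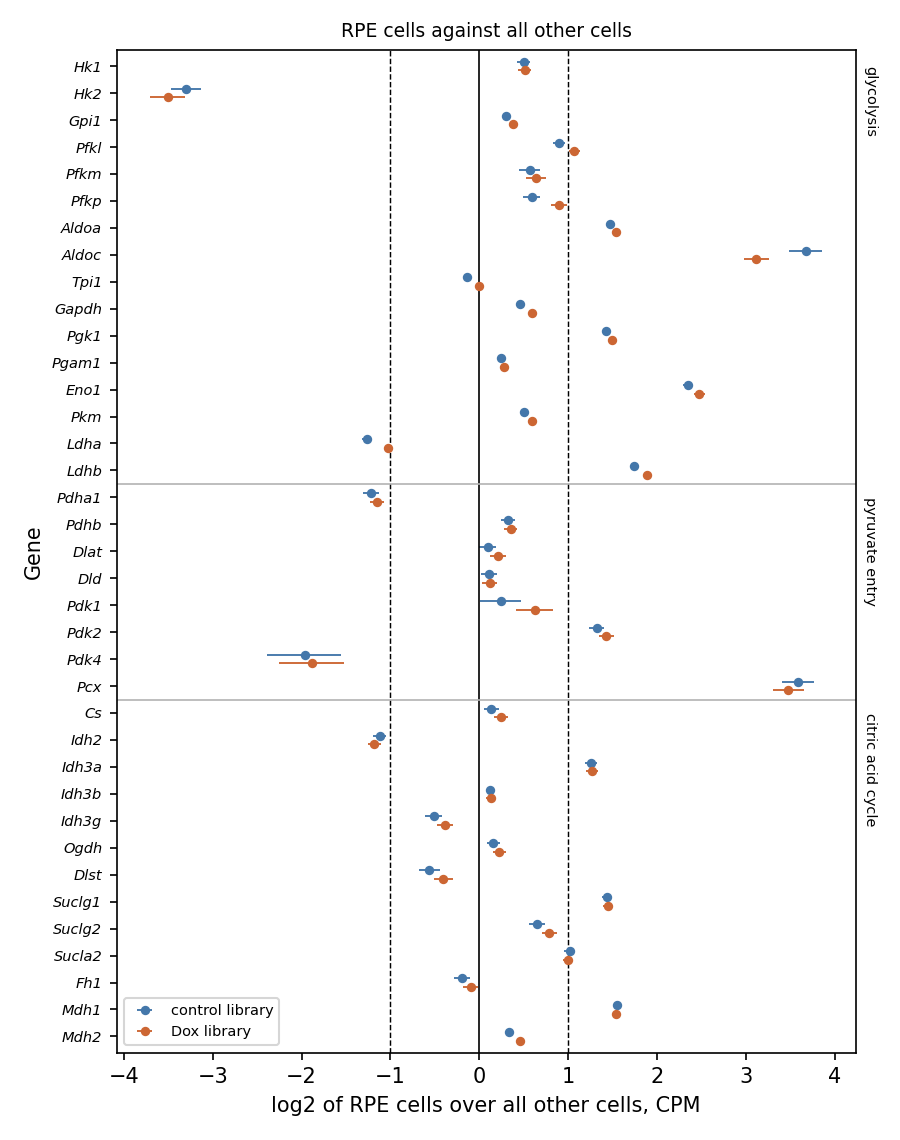
The log2 ratio of the CPM in RPE cells to that in all other cells, for the 37 members in each library, with 95% intervals of counting error and dashed lines at 2-fold. Aldoc, Pcx and Eno1 lie farthest to the right and Hk2 farthest to the left in both libraries.

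Ranked over RPE cells and 7 other named cell types, 12 members were highest in RPE cells in both libraries. They were Aldoa, Aldoc, Eno1, Ldhb, Pfkm and Pgk1 of glycolysis and Idh3a, Mdh1, Pcx, Pdk2, Sucla2 and Suclg1 of the other lists. The share of all genes that ranked highest or lowest in RPE cells is not given, so the counts of this ranking have no background. The intervals of RPE cells and of the type ranked next overlapped for Pfkm in both libraries and for Aldoc and Pdk2 in Dox. For Mdh1, the next type in control was smooth muscle-like cells at 496 CPM, against 843 CPM in RPE cells. For Aldoc in Dox it was Schwann-like cells at 61.2 CPM (24.6 to 126), which rested on 7 UMIs. Hk2, Ldha and Idh3g were lowest in RPE cells in both libraries. For Ldha the intervals of RPE cells overlapped those of no other named type. For Hk2 they overlapped those of Schwann-like cells in both libraries and of endothelial-like cells in Dox, and for Idh3g those of NK or T-like and Schwann-like cells in control and of Schwann-like and endothelial-like cells in Dox. Smooth muscle-like cells held the highest level of Gpi1, Cs, Dlat, Dlst, Idh3b, Idh3g, Mdh2, Ogdh and Pdha1 in both libraries, with an interval clear of the type ranked next in both for Gpi1 alone. The melanocyte-like cells were led by Hbb-bs, a globin gene, beside Pmel, and held 9601 CPM of the RPE markers in control and 29208 CPM in Dox.

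Genes outside the 37 from the same pathways were read in the same way, from lists of 69 genes. In control 14 of the 62 with at least 50 UMIs were at least 2-fold higher in RPE cells and 12 lower, and in Dox 18 and 12 of 61. The shares over all genes were 12.8% and 34% in control, and 14.2% and 32.9% in Dox. Genes of glucose and lactate transport were among those with the largest ratios. The lactate carrier Slc16a8, known as the carrier of the basolateral RPE membrane, was at 1473 CPM in RPE cells of control and 70.3 CPM in the others, and at 1437 and 97.3 CPM in Dox. The glucose carrier Slc2a1 was at 771 and 76.8 CPM in control and 818 and 92.1 CPM in Dox. The lactate carrier Slc16a1 was 9.49-fold higher in control and 8.28-fold in Dox, and their partner Bsg 7.23-fold and 6.01-fold. Slc16a3, the lactate carrier of glycolytic cells, was at 0.722 and 11.9 CPM in control. Pfkfb3, which makes an activator of phosphofructokinase, was at 2.51 and 25.2 CPM.

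Between Dox and control, levels in RPE cells stayed within a ratio of 5 to 4 for 34 of the 37 members. RPE cells of the Dox library were pooled here whether or not the injected drug had reached them. Aldoc was higher in Dox, from 44.5 CPM (42.0 to 47.2) to 68.3 CPM (65.4 to 71.3), a 1.53-fold ratio and a log2 ratio of 0.62 (0.51 to 0.72). Pdk1 was higher, from 7.90 to 10.4 CPM, at a log2 ratio of 0.40 (0.14 to 0.66). Hk2 was lower, from 11.2 to 7.12 CPM, at a log2 ratio of -0.66 (-0.91 to -0.40). Among all 12771 genes compared, 2.72% were higher and 7.35% lower by this rule, which asks for a ratio of at least 5 to 4 in size and an interval that leaves out equal levels. Of the 28 members at 50 CPM or more, 1 was higher and none lower, against 32 and 66 of all 2553 genes at that level. Neither Aldoc nor Pdk1 passed the rule among RPE cells low in Serpina3n, whose values are given further on.

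The members that came nearest were Ldhb, 1.22-fold higher in Dox at a log2 ratio of 0.28 (0.26 to 0.31), and Idh2, at -0.26 (-0.36 to -0.16). The rest of glycolysis lay between -0.08 (Gapdh) and 0.17 (Pfkp and Ldha). The 5 members with the most UMIs were Aldoa (0.03, interval 0.01 to 0.04), Mdh1 (0.05, 0.03 to 0.08), Ldhb, Gapdh (-0.08, -0.12 to -0.05) and Pkm (0.08, 0.04 to 0.11). A small shift in one direction was shared by many. In glycolysis 14 of 16 ratios were above 0, with a median of 0.08, and in the other lists 17 of 21, with a median of 0.05. Among all genes 46.7% were above 0, with a median of -0.01. At 50 CPM or more, 23 of 28 members and 46.9% of genes were above 0. Summed, glycolysis was higher in Dox by 0.09 on the log2 scale (0.08 to 0.10) and the other lists by 0.05 (0.03 to 0.06). Genes with many UMIs weigh most in such sums. Ldhb alone went from 753 to 915 CPM, while the glycolysis sum went from 5791 to 6148 CPM. As means of the cells' own CPM the log2 ratios of the sums were 0.054 for glycolysis and 0.024 for the other lists. Among the cells low in Serpina3n they were 0.040 (0.029 to 0.050) and 0.0079 (-0.0083 to 0.024). Among the cells high in Serpina3n they were -0.0095 (-0.048 to 0.029) and 0.043 (-0.019 to 0.10).

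**Figure D4:**
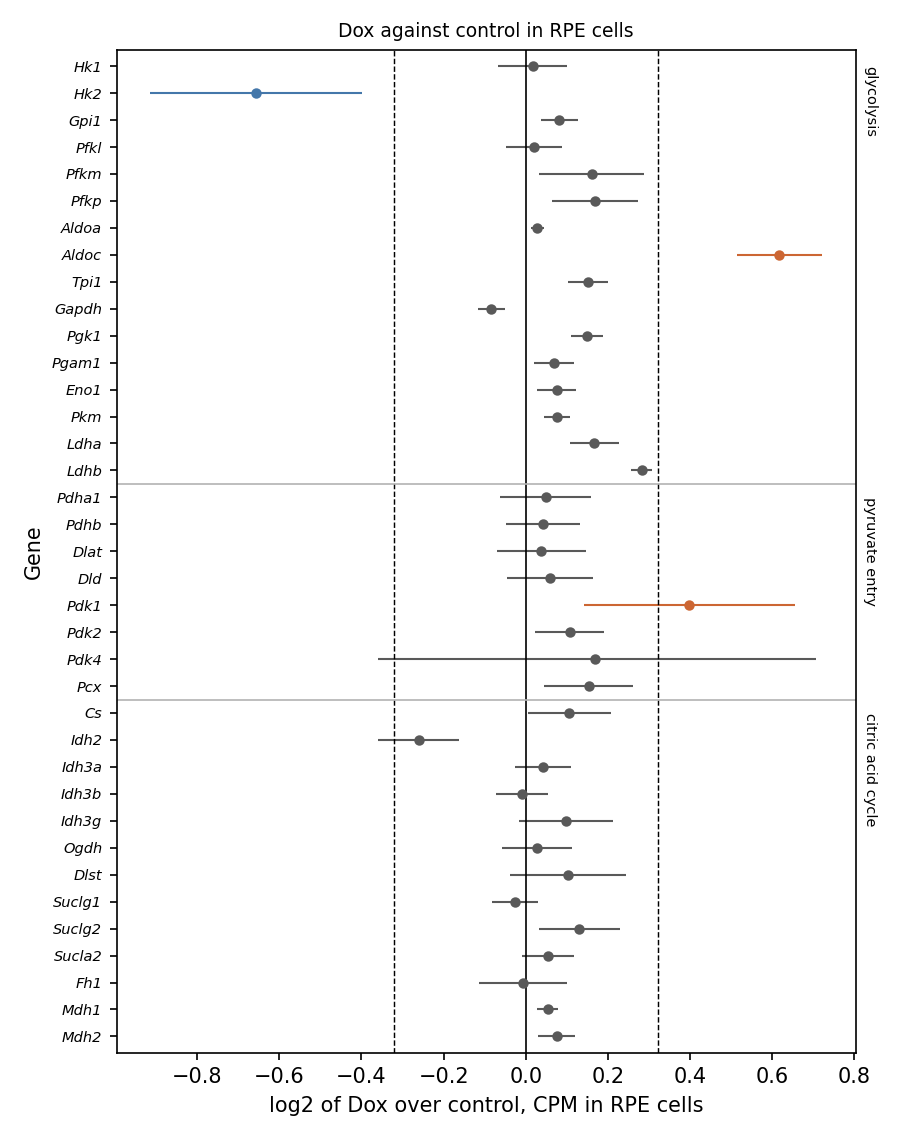
The log2 ratio of Dox to control in RPE cells for the 37 members, with 95% intervals of counting error and dashed lines at a ratio of 5 to 4. Aldoc and Pdk1 (orange) lie past the upper line and Hk2 (blue) past the lower one, and most other points lie just above 0.

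Markers of other cells within RPE cells moved between the libraries too. The summed level of 12 fibroblast markers in RPE cells was 1992 CPM in control against 1310 CPM in Dox, with 1 marker of 12 higher in Dox. That of 9 melanocyte markers was 2766 and 1743 CPM, of 10 macrophage markers 363 and 180.4 CPM, and of 8 smooth muscle markers 412 and 286 CPM. Fibroblast-like cells had 124 CPM of Hk2 in control and 88.4 CPM in Dox, and 128 and 119 CPM of Idh2, more than RPE cells in both. The part of these cells' RNA in the lower Hk2 and Idh2 was not tested.

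The same comparison in the other cell types found few members past this limit. In all other cells together 1 of 37 was higher (Aldoc) and 1 lower (Hk2), against 4.32% and 7.8% of all genes. In fibroblast-like cells the same 2 genes passed, against 3.05% and 4.51%. In macrophage-like cells 0 of 34 were higher and 2 lower (Hk2 and Idh2), against 4.18% and 6.56%. In smooth muscle-like cells 0 of 33 were higher and 1 lower (Hk2), against 5.44% and 4.74%. In NK or T-like cells 1 of 33 was higher (Dld) and 2 were lower (Pdk1 and Idh2), against 3.96% and 6.41%.

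Hk2 was thus lower in Dox in RPE cells and in fibroblast-like, macrophage-like and smooth muscle-like cells. In macrophage-like cells it was at 96.8 CPM in control against 47.7 CPM in Dox, -1.02 on the log2 scale (-1.30 to -0.75). Aldoc in fibroblast-like cells was at 2.32 and 5.38 CPM, a log2 ratio of 1.22 (0.91 to 1.52). The summed RPE markers in fibroblast-like cells were 3337 CPM in control against 5155 CPM in Dox, and the part of RPE RNA in this value was not tested.

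Of the 69 other genes of these pathways, 58 had at least 50 UMIs in RPE cells, and 4 were higher in Dox and 2 lower, against 2.72% and 7.35% of all genes. All 6 were below 50 CPM in both libraries. Hkdc1, a hexokinase-like gene, was at 12.0 CPM in control against 16.2 CPM in Dox. Its level was above that of Hk2 in both libraries (11.2 and 7.12 CPM), with overlapping intervals in control. It was 10.7-fold higher in RPE cells than in all other cells in control and 9.48-fold higher in Dox. Ldhd, which oxidizes D-lactate, was at 1.67 and 2.95 CPM, and Tigar, a p53 target that slows glycolysis, at 2.85 and 3.97 CPM. Ogdhl, a relative of Ogdh, was at 4.52 and 5.83 CPM. The lower genes were Pfkfb3, at 2.51 and 1.63 CPM, and Pck2, the mitochondrial enzyme that makes phosphoenolpyruvate, at 7.68 and 5.87 CPM. None of the 11 transport genes among them passed in either direction.

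RPE cells were also split by a gene outside the lists, taken from earlier results of these data, Serpina3n, which encodes a secreted protease inhibitor induced in inflamed and injured tissue. Cells with Serpina3n at 500 CPM or more were 35 of 1526 in control (2.29%) and 265 of 1630 in Dox (16.3%). They had more UMIs per cell, with a median of 28460 against 15908 in control and 27203 against 16726 in Dox. Their Rpe65 level was lower, at 2360 against 5056 CPM in control and 2147 against 5579 CPM in Dox. Cdkn1a, the cell cycle inhibitor p21, was at 314 against 60.9 CPM in Dox and at 63.3 against 47.2 CPM in control.

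Summed glycolysis was higher in these cells in both libraries, at 7120 against 5744 CPM in control and 7073 against 5905 CPM in Dox. The other lists summed to 2705 against 2419 CPM in control and 2786 against 2432 CPM in Dox. By gene, 7 glycolysis members passed the rule as higher and 0 as lower in control, and 5 and 1 in Dox. For the other lists the counts were 4 and 2 in both libraries. All genes passed at 6.59% higher and 9.33% lower in control, and at 7.97% and 25.3% in Dox. These shares include genes of low level, whose intervals are wider, and no share at the level of the members is given.

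Ldha, Ldhb, Pgk1, Tpi1, Aldoc and Mdh2 passed as higher in these cells in both libraries. Ldha was at 271 against 143 CPM in Dox, 0.92 on the log2 scale (0.84 to 1.004), and at 266 against 147 CPM in control, 0.86 (0.66 to 1.05). Pgk1 was at 582 against 354 CPM in Dox and 626 against 353 CPM in control. Ldhb was at 1309 against 812 CPM in Dox and 1049 against 742 CPM in control. Aldoc was at 136 against 50.6 CPM in Dox, 1.43 on the log2 scale (1.30 to 1.55), and at 62.2 against 43.9 CPM in control, 0.50 (0.08 to 0.89). Pcx and Suclg1 were lower in these cells in both libraries. Suclg1 was at 134 against 189 CPM in Dox and 131 against 183 CPM in control, and Pcx at 41.8 against 53.7 CPM and 28.3 against 46.7 CPM. The enolase Eno1 and the hexokinase Hk1 passed in neither library.

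**Figure D5:**
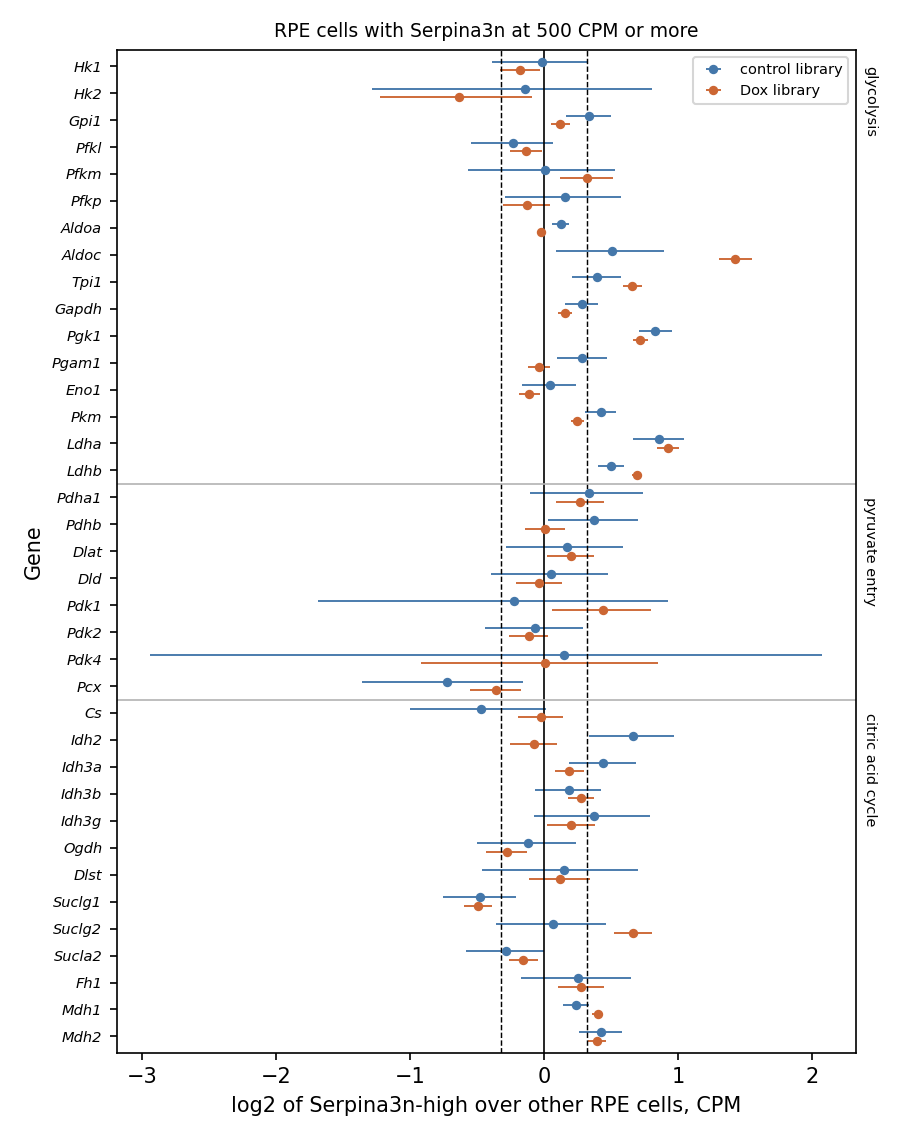
The log2 ratio of RPE cells with Serpina3n at 500 CPM or more to the other RPE cells of the same library, for members with at least 50 UMIs, with 95% intervals of counting error and dashed lines at a ratio of 5 to 4. Ldha, Pgk1, Ldhb, Tpi1 and Aldoc lie to the right and Suclg1 and Pcx to the left in both libraries.

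Since these cells were deeper, the split was repeated, after the values had been seen, among the RPE cells with the most UMIs. RPE cells of each library were ranked into 4 groups by UMIs per cell, and the top group held 23 cells with high Serpina3n in control and 130 in Dox, at medians of 33954 and 33433 UMIs against 30037 and 34559 in the others. In it, Ldha was at 284 against 151 CPM in Dox and 272 against 151 CPM in control, and Aldoc at 143 against 47.2 CPM and 66.6 against 42.9 CPM. Glycolysis had 5 members higher and 0 lower in Dox and 7 and 0 in control, and the other lists 4 and 1 in both. All genes passed at 10.8% higher and 14.6% lower in Dox and at 7.35% and 7.24% in control. Suclg1 remained the lower member, at 139 against 213 CPM in Dox.

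Set between the libraries, the cells under 500 CPM of Serpina3n had 0 members higher in Dox and 1 lower, Hk2 at 11.2 and 7.68 CPM, against 2.2% and 5.65% of all genes. Aldoc in them was at 43.9 and 50.6 CPM, a log2 ratio of 0.20 (0.09 to 0.32), so that it did not pass the rule without the Serpina3n-high cells. Pgk1, Tpi1 and Ldha had log2 ratios of 0.01, 0.00 and -0.04 there, and Ldhb 0.13 (0.10 to 0.16). Pdk1 was at 7.94 and 9.71 CPM, at 0.29 (0.01 to 0.57), and also did not pass. Among the cells at 500 CPM or more, Aldoc was at 62.2 and 136 CPM, Suclg2 at 59.9 and 88.8 CPM and Cs at 39.6 and 57.7 CPM, all 3 higher in Dox. Idh2 was lower there, at 99.5 and 51.4 CPM. By this rule 7.36% of all genes were higher and 10.1% lower, with 35 cells in control.

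Levels of the members also moved with the depth and the quality of the cells. In the group of RPE cells with the fewest UMIs, glycolysis summed to 4760 CPM in control against 4623 CPM in Dox, against 6128 and 6597 CPM in the group with the most. The groups between had 5234 and 5349 CPM, and 5870 and 6255 CPM, so that only the group with the fewest UMIs was lower in Dox. Hk2 instead fell from the fewest to the most UMIs, from 20.6 to 6.83 CPM in control and from 15.6 to 3.19 CPM in Dox. Within the 4 groups, from the fewest to the most UMIs, the log2 ratio of Dox to control was 0.25, 0.28, 0.53 and 0.80 for Aldoc. It was -0.08, 0.13, 0.31 and 0.32 for Ldhb, and -0.40, -0.60, -0.37 and -1.10 for Hk2. The sign was thus shared by all 4 groups for Aldoc and Hk2 but not for Ldhb. In the group with the fewest UMIs no glycolysis member passed the rule, so neither Aldoc nor Hk2 did. In the next group none passed as higher, and in the group after it none as lower. In the 10% of RPE cells with the highest share of Malat1, a nuclear RNA, glycolysis summed to 2995 CPM against 5872 CPM in the others in control, and to 2924 against 6243 CPM in Dox. Cells with a mitochondrial share of 0.1 to 0.2 had 4112 against 5820 CPM in control and 4216 against 6183 CPM in Dox. Cells just inside the Rpe65 limit, with 10 to 14 UMIs, had 4722 CPM of glycolysis in control and 4625 CPM in Dox. Those just outside it, with 5 to 9 UMIs, had 3783 and 3514 CPM.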

How the data were processed

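Single-cell RNA of the RPE, choroid and sclera was measured in 1 control and 1 Dox library. The authors counted reads on mm10 with Cell Ranger, version 4.0.0 by the header, and deposited raw UMI counts per gene and cell, with barcode and gene lists. Following the study's methods, a cell was kept if its UMIs exceeded 500, its genes numbered between 200 and 6000, its ratio of log10 genes to log10 UMIs exceeded 0.8 and mitochondrial genes gave a share below 0.2 of its counts. Cells were clustered with Seurat 5.3.0 (SCTransform, integration on 3000 features less the members and other pathway genes, which left 2976, 40 components, resolution 0.1) and named by at least 3 markers at 10 CPM and 1 among the 10 leading genes. Of the unnamed clusters, 97 control and 121 Dox cells met the Rpe65 limit and counted as RPE cells. The remaining cells of the 2 unnamed clusters entered only the sum of all other cells. In all, 1351 RPE cells in control (88.5%) and 1411 in Dox (86.6%) lay in the RPE-like cluster. The fibroblast-like clusters held 19 RPE cells in control and 54 in Dox.

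UMIs were summed per cell group and library with Python 3.11.15 and scipy 1.17.1. Intervals are exact Poisson (CPM), exact conditional binomial (ratios) and Clopper-Pearson (shares). Calls need 50 UMIs over the groups compared. The steps were tested on simulated data. Members and lists were chosen with earlier results of these data known. Every member was to be named, and other pathway genes only when called at 50 CPM or more; those printed below that level, and the transport genes, were chosen after their values were seen. Doublets were scored with Scrublet (scanpy 1.11.5), which called 1941 cells in control and 0 in Dox and so did not work in Dox; none were removed in the main analysis. The melanocyte-like cluster split off an erythrocyte-like cluster at a resolution of 0.2 and was not compared between the libraries. Gene positions are from GENCODE vM21 (GRCm38). The alternatives are given in the closing section.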

Additional observations from a re-analysis of the deposited data

Results flagged for a closer look

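Pdk1, a kinase of pyruvate dehydrogenase, had Dox to control ratios of opposite sign in RPE cells and NK or T-like cells. On the log2 scale the ratio was 0.40 for RPE cells (0.14 to 0.66), which rested on 208 control UMIs and 325 Dox UMIs. It was -1.23 for NK or T-like cells (-2.34 to -0.24), with 41 and 11 UMIs. There was 1 library per condition, and the difference between the cell types was not tested.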

How the results depend on the processing

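Over 15 alternative settings, 110 of 128 summary values were rated as the same, 18 as moved, and 0 changed sign. Some of these values are counts of members, which have no interval. Counts and shares could not change sign at any setting. For single genes 9 settings were run, and 322 of 333 values moved by less than their spread. Of these 333, 12 changed sign, for the 6 genes Hk1, Pfkl, Pdk4, Pdha1, Idh3b and Fh1, whose intervals held 0. Summed glycolysis, Dox over control, was 0.066 on the log2 scale with at least 5 Rpe65 UMIs, 0.073 without the highest doublet scores (3258 and 1904 cells), 0.054 as the mean of the cells' own CPM and 0.10 when centred on the median of all genes. The summed citric acid cycle lists were 0.024 as the mean of the cells' own CPM. At a fold of 1.5, 0 members of the citric acid cycle lists were higher in Dox. The Ldhb share in control and Dox was 81.0% and 82.1% with at least 5 Rpe65 UMIs, 84.0% and 85.0% with at least 20, 84.0% and 85.0% in the RPE-like cluster alone, and 85.2% and 85.0% without the highest doublet scores. The members lower in RPE cells than in others numbered 2 in control and 2 in Dox when centred, 3 in Dox with at least 5 Rpe65 UMIs, and 2 in Dox against the median of the other named cell types. The cause of these moves was not tested. Levels by cell type at a resolution of 0.2 left the largest cluster of fibroblast-like cells unnamed. No paired analysis was possible because each condition had 1 library. Intervals cover counting error only, and the spread between mice is not known from pooled eyes. Members at a few CPM, such as Pdk4 with 54 and 72 UMIs in RPE cells, have wide intervals. For Pdk4 the log2 ratio of Dox to control was 0.17, with an interval of -0.36 to 0.71 that holds 0.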
